A study of Homo sapiens with 14 samples.

Results

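The 10 genes described here encode sialyltransferases of the ST6GALNAC and ST8SIA families, and they were measured in CWR22RV1 cells, an established human prostate cancer cell line. Genes were taken by symbol, or by NCBI gene number in the table without symbols, and all 10 were present, as 6 ST6GALNAC and 4 ST8SIA genes among 27819 genes that the 4 deposited tables share. Poly(A) RNA was sequenced in 14 libraries after 72 h. The vehicle control, DMSO, has 3 libraries, Fucotrim I at 30 μM has 3, Fucotrim II at 60 μM has 2, SGN-2FF at 100 μM has 3 and P-SiaFNEtoc at 2 μM has 3. Fucotrim I and Fucotrim II are rhamnose-1-phosphate derivatives aimed at the synthesis of GDP-fucose, SGN-2FF is 2-fluorofucose, and P-SiaFNEtoc is a fluorinated sialic acid analogue that inhibits sialyltransferases. The comparisons ask how each inhibitor left the mRNA levels of the enzymes that it does or does not target, in a single cell line and at a single concentration and time for each compound.

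The libraries held between 12553094 and 19981314 counts on genes, so that 3 counts, taken as the detection floor of a library, corresponded to 0.144 to 0.251 CPM, the count scaled to library size. All 7 luminal prostate markers given here (KLK2, KLK3, HOXB13, KRT8, KRT18, EPCAM and FOLH1) were well above this floor in every library, the lowest being KLK3 at 27.5 to 79.2 CPM. CD3E of T cells had 0 counts in all libraries. Of the other leukocyte markers PTPRC had 0 to 3 counts, CD79A 0 to 5 and CD14 2 to 10. CD14 was above the floor in DMSO, at 0.275 to 0.556 CPM. PECAM1 and CDH5 of endothelial cells had 0 or 1 counts and VWF 0 to 3. In the fibroblast list COL1A2 had 0 to 3, PDGFRB 1 to 6 and DCN 0 to 13, while COL1A1 was detected in every library. NCAM1 had 0 to 3 counts and CHGA 0 to 2, whereas SYP, ENO2 and TUBB3 of the neuronal list were detected in every library.

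Sialyltransferases transfer sialic acid from CMP-sialic acid to the ends of glycan chains in the Golgi. The ST6GALNAC enzymes attach it to N-acetylgalactosamine, either in mucin-type O-glycans, where they form sialyl-Tn and disialyl-T antigens, or in gangliosides, the sialic acid-bearing glycolipids of the cell surface. The ST8SIA enzymes attach sialic acid to another sialic acid, which gives disialylated gangliosides such as GD3, short oligosialic chains, or the long polysialic acid chains of neural cell adhesion molecule.

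The promoters of 4 genes are printed, each of them called in at least 1 comparison with DMSO below. No relation between promoter sequence and mRNA level was tested. In those comparisons ST6GALNAC5 was higher with P-SiaFNEtoc, and ST8SIA1 was lower with both Fucotrims. ST8SIA1 had few counts and passed the filter only through its DMSO libraries, and its Fucotrim I call was lost without Fucotrim I replicate 3. ST6GALNAC4 and ST6GALNAC6 are neighbours that were both higher with Fucotrim I, in calls that were lost under several alternatives. Each line gives the 250 bases upstream of a start site annotated by RefSeq on GRCh38.p14, read 5′ to 3′ on the strand of the gene, with the letters of a GC box (GGGCGG) or CCAAT box (CCAAT) in capitals on either strand. The intervals are chr1:76867230-76867479 on the plus strand, and chr9:127917042-127917291, chr9:127905325-127905574 and chr12:22334708-22334957 on the minus strand, in the order of the lines. RefSeq gives 3 starts for ST6GALNAC6, and the first of them, which is nearest to ST6GALNAC4, is printed.
ST6GALNAC5: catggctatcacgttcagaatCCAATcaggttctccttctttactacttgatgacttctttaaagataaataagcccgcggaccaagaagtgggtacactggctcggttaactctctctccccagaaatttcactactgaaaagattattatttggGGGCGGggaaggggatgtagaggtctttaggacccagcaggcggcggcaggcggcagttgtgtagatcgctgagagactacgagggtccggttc
ST6GALNAC4: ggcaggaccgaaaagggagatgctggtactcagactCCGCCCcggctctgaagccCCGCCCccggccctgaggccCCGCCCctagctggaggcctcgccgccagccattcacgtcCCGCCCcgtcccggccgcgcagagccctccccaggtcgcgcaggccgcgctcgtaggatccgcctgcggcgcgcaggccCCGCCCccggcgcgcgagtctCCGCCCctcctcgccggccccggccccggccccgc
ST6GALNAC6: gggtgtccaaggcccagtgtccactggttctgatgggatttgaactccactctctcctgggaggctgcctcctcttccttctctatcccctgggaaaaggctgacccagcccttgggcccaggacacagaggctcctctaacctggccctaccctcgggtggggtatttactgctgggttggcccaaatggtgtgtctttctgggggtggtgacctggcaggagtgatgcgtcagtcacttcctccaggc
ST8SIA1: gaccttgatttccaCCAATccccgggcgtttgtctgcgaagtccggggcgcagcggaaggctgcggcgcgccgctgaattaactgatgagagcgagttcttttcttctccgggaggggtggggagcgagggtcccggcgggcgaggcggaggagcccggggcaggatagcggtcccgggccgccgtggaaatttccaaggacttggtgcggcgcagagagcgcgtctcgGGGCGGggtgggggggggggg

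A GC box was present in 42.6%, a CCAAT box in 32% and a TATA box (TATAAA) in 10.7% of the 35116 promoters of this length. The ST6GALNAC4 promoter contained 6 GC boxes and had a GC content of 79.2%, against a median of 58% for all promoters. That of ST6GALNAC5 was the least GC-rich of those printed, at 49.6%, with 1 GC box and 1 CCAAT box. The printed ST6GALNAC6 promoter held none of the 3 motifs, while the other two starts of the gene had 4 and 2 GC boxes. ST8SIA1 had 1 GC box and 1 CCAAT box. Of the remaining genes, ST6GALNAC3 and ST8SIA4 also had an entry, with 3 and 1 GC boxes, and ST6GALNAC1, ST6GALNAC2, ST8SIA5 and ST8SIA6 had none.

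In DMSO the 10 mRNAs fell into 5 genes with a clear level and 5 near the detection floor. Levels were compared between genes as RPKM, which is CPM divided by the summed exon length in kilobases. ST6GALNAC6 was highest at 5.11 ± 0.142 RPKM (SD, n = 3), and ST6GALNAC4 followed at 3.05 ± 0.121. ST8SIA4, the polysialyltransferase, reached 2.07 ± 0.0513 RPKM and ST6GALNAC2 reached 1.56 ± 0.267. ST6GALNAC5 was at 0.662 ± 0.0446 RPKM, which was 8.49 times the level of the next gene. None of these 5 overlapped its neighbour in the order across the DMSO libraries. Below them ST6GALNAC3, ST6GALNAC1, ST8SIA1 and ST8SIA6 had means between 0.0516 and 0.078 RPKM, and neighbours among them overlapped, so that their order is within the spread of the libraries. ST8SIA5 was lowest at 0.00835 RPKM. With the length of the longest transcript in place of the summed exons the first 5 ranks stayed in place, and ST8SIA1 moved from rank 8 to rank 6.

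**Figure D1:**
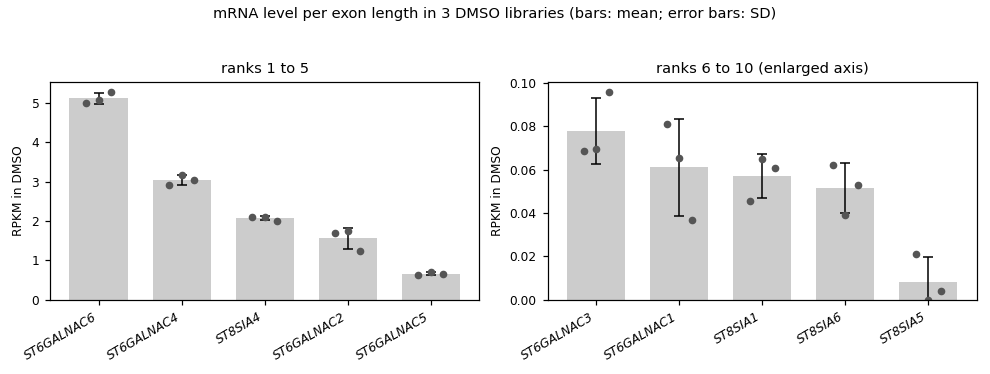
mRNA level of the 10 sialyltransferase genes in the 3 DMSO libraries as RPKM (vertical axes, linear from 0), in the order of their means, with bars for means, error bars for SD and points for libraries. The left panel runs from ST6GALNAC6 at 5.11 to ST6GALNAC5 at 0.662, and the right panel, on an enlarged axis, holds the 5 genes with means of 0.078 or lower.

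ST6GALNAC1, ST6GALNAC3, ST8SIA5 and ST8SIA6 were too low to be tested in any comparison with DMSO. ST6GALNAC1, the sialyl-Tn synthase, had 2 to 6 counts per library in all 5 conditions. ST8SIA6, which builds disialic acid on O-glycans, had 4 to 9 counts and ST8SIA5, which extends GD3 to GT3, had 0 to 6. ST8SIA5 was at 0 counts in all 3 Fucotrim I libraries, but also in 1 of the DMSO libraries. ST6GALNAC3, which disialylates the T antigen, had 9, 9 and 11 counts in DMSO, 4, 5 and 5 with Fucotrim I, 2 and 4 with Fucotrim II, 5, 5 and 9 with SGN-2FF, and 6, 7 and 6 with P-SiaFNEtoc. The Fucotrim I, Fucotrim II and P-SiaFNEtoc libraries were all below those of DMSO, and those of SGN-2FF overlapped them. Without a filter on low counts ST6GALNAC3 had a log2 fold change of -1.65 (SE 0.60) with Fucotrim II and an adjusted p of 0.0391 by edgeR's quasi-likelihood test. This rests on 6 counts in both treated libraries together. ST6GALNAC3 was also called in a single fit of all 14 libraries, whose filter counts libraries of all 5 conditions. In the table of Fucotrim II and DMSO, 1 DMSO library and 0 Fucotrim II libraries reached the level of the filter. The 2 ST8SIA genes outside the set, ST8SIA2 and ST8SIA3, had 0 or 1 and 1 to 8 counts per library.

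Between 1 and 4 of the 6 tested genes were called with each inhibitor. With P-SiaFNEtoc only ST6GALNAC5 was called, and it was higher than in DMSO. Fucotrim I was followed by small rises of ST6GALNAC4, ST6GALNAC6 and ST8SIA4 and a fall of ST8SIA1, Fucotrim II by a rise of ST6GALNAC6 and a fall of ST8SIA1, and SGN-2FF by a fall of ST6GALNAC2 alone. A gene was called at an adjusted p under 0.05 (edgeR's quasi-likelihood test, Benjamini-Hochberg over all genes tested). The called genes were 4 of 6 for Fucotrim I, where 43.8% of all tested genes were called, 2 of 6 for Fucotrim II (51.4% of all genes), 1 of 6 for SGN-2FF (20.6%) and 1 of 6 for P-SiaFNEtoc (16.3%). The shares for SGN-2FF and P-SiaFNEtoc rest on 1 gene each, and nothing particular to the families is read from them. Treated and DMSO libraries did not overlap for 4, 5, 3 and 3 of the 6 genes in the same order, beside 52.6%, 67.6%, 36.4% and 33.7% of all genes. ST8SIA1 passed the filter in all 4 comparisons only through its DMSO libraries, so that its place in these counts was favoured by the level it had there. All 4 comparisons use the same DMSO libraries, and a change in the RNA per cell cannot be told apart from a change in the mix of cells in such bulk samples.

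**Figure D2:**
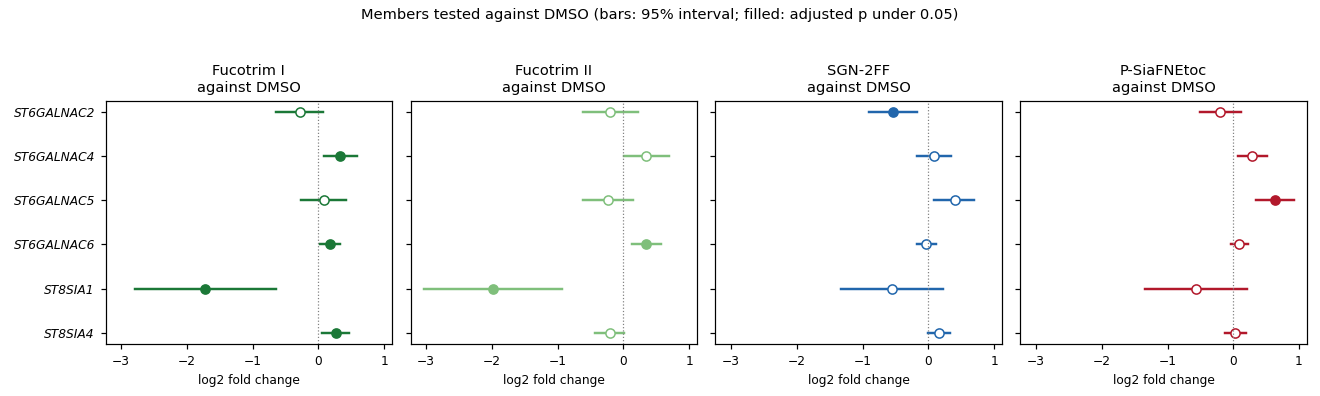
Log2 fold change against DMSO (horizontal axes) of the 6 genes that could be tested, 1 panel per inhibitor, with bars for the 95% interval and filled circles for an adjusted p under 0.05. ST6GALNAC5 is the filled circle for P-SiaFNEtoc at 0.64, and the intervals of ST8SIA1 are the widest in every panel.

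ST6GALNAC5 adds sialic acid to gangliosides of the alpha series and lies on chromosome 1 (chr1:76867480-77067546, plus strand, hg38). It stood at 3.74, 4.28 and 4.01 CPM in DMSO and at 5.72, 6.24 and 6.81 CPM with P-SiaFNEtoc, on 68, 77 and 64 against 119, 99 and 108 counts. Every P-SiaFNEtoc library was above every DMSO library. Its log2 fold change was 0.64 (SE 0.14, 95% interval 0.35 to 0.92, adjusted p = 0.0017 by edgeR's quasi-likelihood test), a level 1.56 times that of DMSO, while the median size of the genes called with this inhibitor was 0.24. The call was made in all 15 alternative analyses, with log2 fold changes of 0.58 to 0.70 and adjusted p-values of at most 0.0124.

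With the fucosylation inhibitors ST6GALNAC5 passed no test. SGN-2FF left it at 5, 5.11 and 5.62 CPM, all above DMSO, with a log2 fold change of 0.40 (95% interval 0.09 to 0.70, adjusted p = 0.0556, edgeR). In the Fucotrim I libraries it was at 3.73, 4.46 and 4.52 CPM, which overlapped DMSO (log2 fold change 0.08, interval -0.26 to 0.42). In the Fucotrim II libraries it was at 3.31 and 3.56 CPM, both just below DMSO (log2 fold change -0.23, interval -0.61 to 0.15).

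ST6GALNAC6, the most abundant of the 10 mRNAs per length, also acts on gangliosides of the alpha series. It was at 26.5, 26.8 and 27.9 CPM in DMSO, 30.6, 30 and 31.2 CPM with Fucotrim I, and 30.9 and 38.2 CPM with Fucotrim II. All 5 Fucotrim libraries were above DMSO, and the second Fucotrim II library was the highest of all. The log2 fold changes were 0.18 (SE 0.07, adjusted p = 0.0492) with Fucotrim I and 0.35 (SE 0.10, adjusted p = 0.0148) with Fucotrim II in edgeR's test. The first call was lost whichever of the 6 libraries was left out, with log2 fold changes of 0.16 to 0.20 and adjusted p-values up to 0.158, and also with DESeq2 (0.11), without a filter on low counts (0.112) and in a single fit of 14 libraries (0.0694). The second was lost without Fucotrim II replicate 2 (0.18, adjusted p = 0.105), DMSO replicate 1 (0.33, 0.0658) or DMSO replicate 2 (0.33, 0.0594). With SGN-2FF the mRNA was at 25.4, 27.7 and 25.7 CPM and with P-SiaFNEtoc at 28.9, 28.3 and 28.8 CPM, the latter narrowly above DMSO, and neither passed the test (log2 fold changes -0.03 and 0.09).

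ST8SIA1, the GD3 synthase, was detected at a low level, with 12, 17 and 14 counts or 0.660, 0.945 and 0.877 CPM in DMSO. The Fucotrim I libraries had 5, 5 and 0 counts and the Fucotrim II libraries 4 and 3, all below DMSO. Its log2 fold change was -1.72 (SE 0.52, adjusted p = 0.0109) with Fucotrim I and -1.98 (SE 0.47, adjusted p = 0.00632) with Fucotrim II by edgeR's test, or 3.28- and 3.95-fold lower. These folds rest on 43 counts in all DMSO libraries, 10 with Fucotrim I and 7 with Fucotrim II. ST8SIA1 reached the level of the filter in 3 DMSO libraries and in 0 of either Fucotrim. Its testing thus depended on its DMSO level. Without Fucotrim I replicate 3, the library with 0 counts, the value was -1.22 (adjusted p = 0.0517), and with limma-voom and library quality weights it was -2.72. With SGN-2FF the counts were 5, 8 and 11 and with P-SiaFNEtoc 6, 9 and 14, and both ranges reached those of DMSO in CPM. The log2 fold changes there were -0.55 (95% interval -1.33 to 0.23) and -0.56 (interval -1.34 to 0.21), and no call was made.

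Of the O-glycan enzymes, ST6GALNAC2 acts on T and sialyl-T antigens. It was at 5.06, 5.22 and 3.76 CPM in DMSO and at 2.58, 3.68 and 3.27 CPM with SGN-2FF. The third DMSO library was close to the highest SGN-2FF library, although the groups did not overlap. The log2 fold change was -0.54 (SE 0.18, adjusted p = 0.0292, edgeR), or 1.45-fold lower. This call was lost without DMSO replicate 1 (-0.49, adjusted p = 0.0918), DMSO replicate 2 (-0.46, 0.094), SGN-2FF replicate 1 (-0.42, 0.15) or SGN-2FF replicate 3 (-0.55, 0.0527). It was also lost with DESeq2 (adjusted p = 0.101) and with limma-voom and library quality weights (0.0783). The levels were 3.73, 3.99 and 3.85 CPM with Fucotrim I, 4.09 and 4.13 with Fucotrim II, and 3.99, 4.04 and 4.28 with P-SiaFNEtoc. All of these lay within or just below the range of DMSO, with log2 fold changes of -0.28, -0.20 and -0.20 that passed no test. In the GENCODE annotation 39.8% of the exon bases of ST6GALNAC2 are shared with another gene on the same strand, and 19.3% with a gene on the opposite strand. The annotation used for counting may differ, and whether its counts depend on how shared reads were assigned was not tested.

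ST6GALNAC4, which makes disialyl-T structures, was at 7.70, 8.34 and 8.02 CPM in DMSO. With Fucotrim I it was at 11.5, 8.71 and 10 CPM, each above DMSO. The log2 fold change was 0.33 (SE 0.12, adjusted p = 0.0327, edgeR), and the call was lost without DMSO replicate 1 (0.30, adjusted p = 0.102), DMSO replicate 3 (0.33, 0.0748), Fucotrim I replicate 1 (0.23, 0.175) or Fucotrim I replicate 3 (0.34, 0.0694). DESeq2 (0.0841) and the single fit of 14 libraries (0.0694) did not make it either. With Fucotrim II the libraries were at 8.54 and 11.9 CPM, with a log2 fold change of 0.35 (95% interval 0.01 to 0.69, adjusted p = 0.0794). That comparison turned on a single library: it was 0.57 (adjusted p = 0.00153) without Fucotrim II replicate 1 and 0.08 (0.695) without replicate 2. P-SiaFNEtoc left the gene at 9.91, 9.21 and 10.2 CPM, all above DMSO, with a log2 fold change of 0.29 (interval 0.07 to 0.51) and an adjusted p of 0.0568 by edgeR. With SGN-2FF it was at 7.20, 10.2 and 7.60 CPM, which overlapped DMSO (log2 fold change 0.09).

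ST8SIA4 synthesizes polysialic acid. Its level was 16.4, 16.5 and 15.7 CPM in DMSO and 19.1, 22.2 and 16.7 CPM with Fucotrim I, where the lowest treated library was next to the highest DMSO library. The log2 fold change was 0.27 (SE 0.10, adjusted p = 0.033, edgeR). The call was lost without Fucotrim I replicate 2 (0.15, adjusted p = 0.22) or any DMSO replicate (0.25 to 0.28, adjusted p-values of 0.0685, 0.0503 and 0.104 for replicates 1, 2 and 3), and with DESeq2 (0.0697) or limma-voom with quality weights (0.072). With Fucotrim II the mRNA was at 14.6 and 13.5 CPM, both below DMSO, and its log2 fold change of -0.21 (95% interval -0.43 to 0.01) passed no test. The values were 18.0, 17.0 and 19.2 CPM with SGN-2FF, all above DMSO (log2 fold change 0.16, interval 0.00 to 0.33), and 16.2, 17.2 and 16.2 CPM with P-SiaFNEtoc, which overlapped it (0.03, interval -0.13 to 0.19). The concentrations of the 3 fucosylation inhibitors differ, so that these values stand side by side and were not tested against each other.

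**Figure D3:**
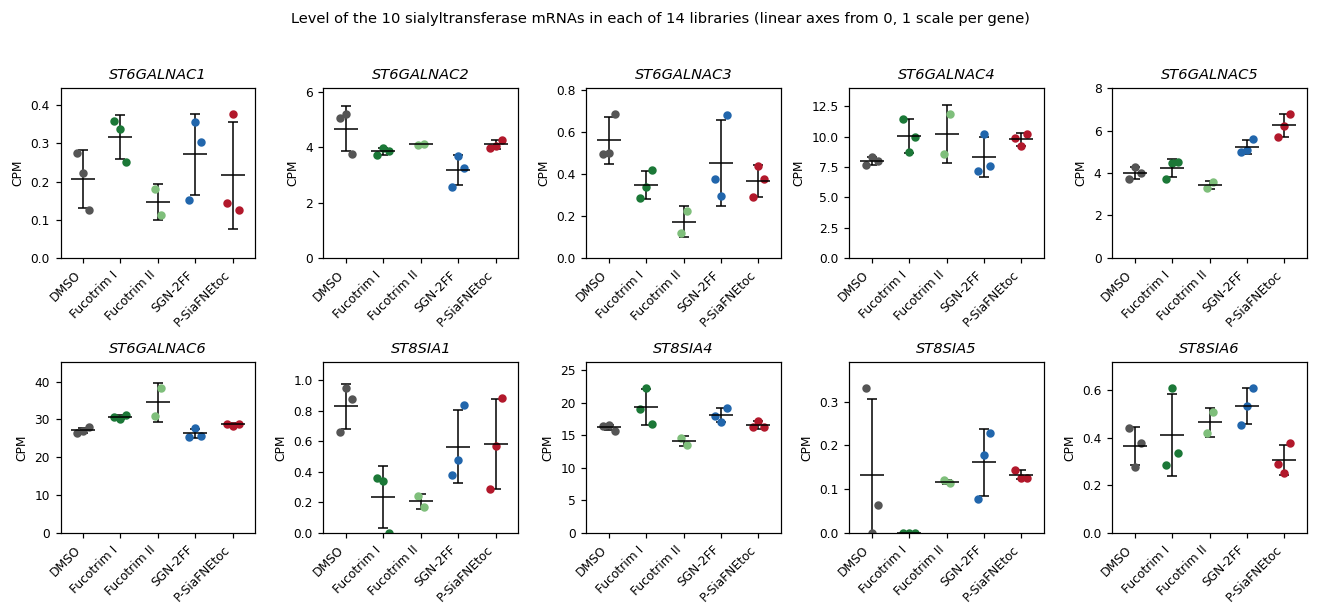
CPM of each of the 10 genes (vertical axes, linear from 0, with a scale for each gene) in the 14 libraries by condition, where points are libraries and horizontal and vertical lines are the mean and SD. The 3 P-SiaFNEtoc libraries of ST6GALNAC5, at 5.72 to 6.81, lie above all others of that gene, and ST6GALNAC1, ST6GALNAC3, ST8SIA1, ST8SIA5 and ST8SIA6 stay below 1 CPM throughout.

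Whether the sialyltransferase inhibitor left other levels than a fucosylation inhibitor was tested directly in 3 contrasts, in a single fit of all 14 libraries. The conditions share an estimate of the spread there, although their replicates differed unequally. Between libraries of a condition, the chi-square per gene was 5.42 to 16.9 for Fucotrim I and 23.5 for Fucotrim II. It was 1.57 to 4.21 in the other conditions. In this fit 7 of the 10 genes passed the filter, which counts libraries of all 5 conditions and not only of the groups compared. With only both compared groups fitted, 5 genes were tested against Fucotrim I, 6 against Fucotrim II and 5 against SGN-2FF. ST6GALNAC5 was higher with P-SiaFNEtoc than with Fucotrim I, by 0.56 on the log2 scale (SE 0.14, adjusted p = 0.0035, edgeR), and was the 1 gene called of 7 (31.3% of all genes). It was also higher than with Fucotrim II, by 0.86 (SE 0.15, adjusted p = 8.85e-05), where 2 of 7 were called (50.2% of all genes). Both differences were called in every alternative run, 10 for Fucotrim I and 9 for Fucotrim II. Against SGN-2FF all 3 P-SiaFNEtoc libraries of ST6GALNAC5 were above those of the fucose analogue, but the difference of 0.25 (95% interval -0.02 to 0.52, adjusted p = 0.324) passed no test. In that contrast edgeR called 0 of 7 genes, with 1 at an unadjusted p under 0.05 (ST6GALNAC2, log2 fold change 0.35), as did DESeq2 and limma-voom with 0 each, and 3.39% of all genes were called. The rise of ST6GALNAC5 over DMSO is thus not shown to differ between P-SiaFNEtoc and SGN-2FF.

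The other call was ST6GALNAC6, which was lower with P-SiaFNEtoc than with Fucotrim II (log2 fold change -0.27, SE 0.08, adjusted p = 0.00766, edgeR). Without Fucotrim II replicate 2 the difference was -0.11 (adjusted p = 0.361). ST8SIA4 missed the threshold against Fucotrim I (-0.24, 95% interval -0.43 to -0.05, adjusted p = 0.055) and passed it without Fucotrim I replicate 3 (-0.33, 0.0142). ST8SIA1 was at 1.42 (interval 0.06 to 2.78, adjusted p = 0.0777) against Fucotrim II, and passed without P-SiaFNEtoc replicate 1 (1.79, 0.03). The compounds were used at different concentrations, so that compound and concentration cannot be told apart in these contrasts.

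**Figure D4:**
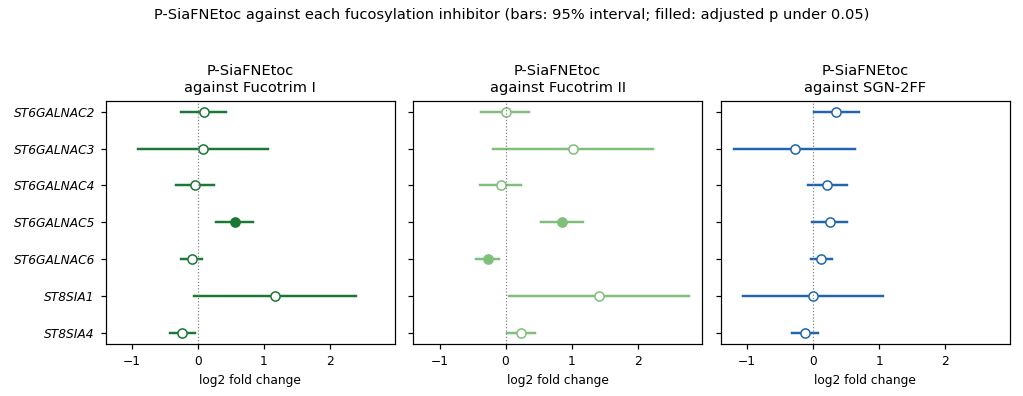
Log2 fold change of P-SiaFNEtoc against each fucosylation inhibitor (horizontal axes) for the 7 genes tested in the fit of 14 libraries, with bars for the 95% interval and filled circles for an adjusted p under 0.05. ST6GALNAC5 lies at 0.56, 0.86 and 0.25 from left to right, and its last interval includes 0.

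ST6GALNAC4 (chr9:127907886-127917041) and ST6GALNAC6 (chr9:127885321-127905408) lie 2.48 kb apart on the minus strand of chromosome 9, and AK1, encoding adenylate kinase, lies 7.64 kb beyond. In the GENCODE annotation, which may differ from that used for counting, another gene on the same strand shares 47% of the exon bases of ST6GALNAC6. It shares 34.5% of those of AK1. ST6GALNAC4 shares 0% of its exon bases with any annotated gene. AK1 was at 53.9, 52.5 and 50.7 CPM in DMSO, 75.7, 66.5 and 68.9 CPM with Fucotrim I, and 64.3 and 85.5 CPM with Fucotrim II. All of its Fucotrim libraries were above DMSO, with log2 fold changes of 0.43 (SE 0.06, adjusted p = 1.67e-05, edgeR) and 0.51 (SE 0.11, adjusted p = 0.00313). With SGN-2FF and P-SiaFNEtoc AK1 passed no test, at 0.10 and 0.09. In Fucotrim II replicate 2 all 3 neighbours were higher than in replicate 1. The part of readthrough or shared reads in these values was not tested.

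**Figure D5:**
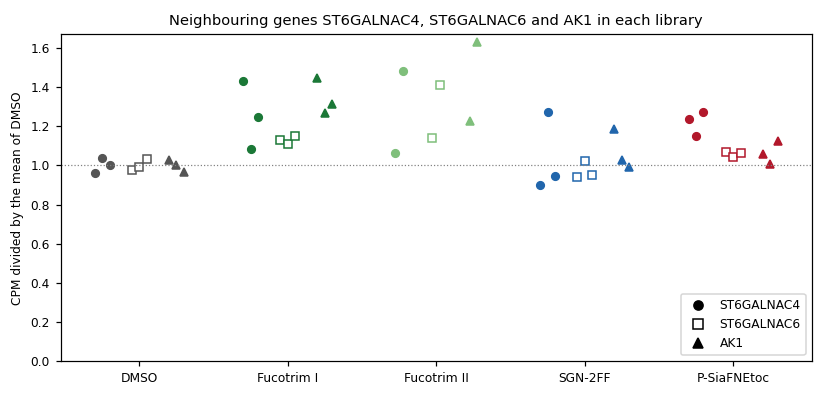
CPM of ST6GALNAC4 (filled circles), ST6GALNAC6 (open squares) and AK1 (triangles) in each library, divided by the mean of that gene in DMSO (vertical axis, linear from 0), by condition. The Fucotrim libraries of all 3 neighbours lie above 1, and the higher Fucotrim II library is the same one, replicate 2, for each.

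Among the other neighbours, ST6GALNAC1 and ST6GALNAC2 lie 37.8 kb apart on chromosome 17, and ST6GALNAC3 and ST6GALNAC5 lie 233 kb apart on chromosome 1. In both pairs 1 gene was expressed and the other was near the floor. ST8SIA6-AS1, an antisense RNA at the ST8SIA6 locus that shares no exon bases with it, had 11.8 to 16 CPM, while ST8SIA6 had 0.252 to 0.608 CPM. ST8SIA6-AS1 rose with Fucotrim II (log2 fold change 0.31, SE 0.11, adjusted p = 0.0467, edgeR) and passed no test with the other inhibitors. Alternative analyses were run neither for ST8SIA6-AS1 nor for AK1, so that it is open whether their calls would stay.

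The 8 sialyltransferases of the ST3GAL and ST6GAL families, which cap galactose, hold the closest relatives of these genes. Of the 7 tested, 4 rose and 1 fell with Fucotrim I (43.8% of all genes called in either direction), 4 rose and 2 fell with Fucotrim II (51.4%), 1 rose and 2 fell with SGN-2FF (20.6%), and 2 rose and 1 fell with P-SiaFNEtoc (16.3%). Their median log2 fold changes were 0.33, 0.51, 0.14 and 0.24, beside medians of 0.00 to 0.01 for all genes tested. ST6GAL1 rose with all 4 inhibitors, Fucotrim I (0.31, adjusted p = 0.00604), Fucotrim II (0.82, 0.000218), SGN-2FF (0.65, 3.5e-07) and P-SiaFNEtoc (0.70, 2.83e-08), in edgeR's test. ST3GAL3 fell with Fucotrim II (-0.39, 0.0341), SGN-2FF (-0.36, 0.0173) and P-SiaFNEtoc (-0.54, 0.000462) in edgeR's test. ST3GAL1 fell with Fucotrim I (-0.33, 2.83e-05), SGN-2FF (-0.25, 2.13e-05) and Fucotrim II (-0.17, 0.0475), the last of which was lost under most alternatives, with adjusted p-values up to 0.387. ST3GAL2 rose with Fucotrim II (0.79, 0.00652) and Fucotrim I (0.61, 0.0195), but the Fucotrim I call was lost without DMSO replicate 3 (0.0782) or Fucotrim I replicate 3 (0.149). The Fucotrim II call of ST3GAL3 was lost without DMSO replicate 3 (0.113) or Fucotrim II replicate 1 (0.0561), with DESeq2 (0.0613) and with limma-voom and quality weights (0.0954). Its SGN-2FF call was lost without DMSO replicate 3 (0.138), SGN-2FF replicate 1 (0.104) or SGN-2FF replicate 2 (0.0728) and with DESeq2 (0.0509).

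Of the genes that supply, modify or remove sialic acid 9 were tested. Among them 3 rose and 3 fell with Fucotrim I, where 43.8% of all genes were called, 2 rose and 2 fell with Fucotrim II (51.4% of all genes), and 1 rose and 1 fell with SGN-2FF (20.6%). With P-SiaFNEtoc, where 16.3% of all genes were called, edgeR called 0, with 3 at an unadjusted p under 0.05, and DESeq2 and limma-voom called 0. NEU3, the ganglioside sialidase, fell with Fucotrim I (-0.38, adjusted p = 0.00737) and Fucotrim II (-0.96, 0.000277), and SIAE, a sialic acid esterase, rose with Fucotrim I (0.49, 4.19e-05), Fucotrim II (0.96, 2.85e-05) and SGN-2FF (0.26, 0.0112) in edgeR's test. NPL, which cleaves sialic acid, rose with Fucotrim I (0.53, 0.0165), a call lost without DMSO replicate 3 (0.0774) or Fucotrim I replicate 2 (0.0521) and with DESeq2 (0.0618). CMAS, which makes CMP-sialic acid, fell with Fucotrim I (-0.14, 0.0278), Fucotrim II (-0.32, 0.00187) and SGN-2FF (-0.17, 0.00543). Its Fucotrim I call was lost without DMSO replicate 1 (0.077), DMSO replicate 3 (0.132), Fucotrim I replicate 1 (0.0506) or Fucotrim I replicate 3 (0.0718). The SGN-2FF call of SIAE was lost without DMSO replicate 3 (0.0538) or SGN-2FF replicate 3 (0.0521) and with DESeq2 (0.0516).

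Enzymes that start, extend or branch the O-glycans on which ST6GALNAC1 to ST6GALNAC4 act were called in both directions. With Fucotrim I 2 of 12 tested rose and 5 fell (43.8% of all genes called), with Fucotrim II 4 of 14 rose and 5 fell (51.4%), with SGN-2FF 1 of 14 rose and 2 fell (20.6%), and with P-SiaFNEtoc 3 of 13 rose and 1 fell (16.3%). GALNT10, which starts O-glycan chains, rose with Fucotrim I (0.57, adjusted p = 1.94e-07), Fucotrim II (0.89, 1.8e-05) and P-SiaFNEtoc (0.38, 2.32e-06) in edgeR's test. GALNT3, of the same enzyme family, fell with Fucotrim I (-0.71, 2.25e-07) and Fucotrim II (-0.60, 0.000244), and rose with P-SiaFNEtoc (0.21, 0.0148). That rise was lost without DMSO replicate 1 (0.059) or P-SiaFNEtoc replicate 2 (0.114) and in the single fit of 14 libraries (0.0742). GCNT1, the core branching enzyme, fell with Fucotrim I (-0.43, 6.47e-05) and Fucotrim II (-0.63, 0.00018). GALNT12 rose with Fucotrim II (0.68, 0.0106), a call lost without Fucotrim II replicate 1 (0.0514). B3GNT3 rose with Fucotrim I (0.40, 0.0019), Fucotrim II (0.49, 0.00285), SGN-2FF (0.29, 0.0187) and P-SiaFNEtoc (0.46, 0.000345). C1GALT1, the T antigen synthase, fell with the same 4 inhibitors, with log2 fold changes of -0.38 (0.0094), -0.56 (0.00498), -0.35 (0.00444) and -0.32 (0.00898) in this order. The SGN-2FF call of B3GNT3 was lost without DMSO replicate 3 (0.0903) or SGN-2FF replicate 1 (0.0972) and with DESeq2 (0.0838). The Fucotrim I call of C1GALT1 was lost without DMSO replicate 2 (0.052) or Fucotrim I replicate 3 (0.0839), and its P-SiaFNEtoc call without DMSO replicate 2 (0.0871) or P-SiaFNEtoc replicate 3 (0.0502) and in the single fit (0.0665).

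Of the genes for synthesis and breakdown of gangliosides, on which ST6GALNAC5, ST6GALNAC6 and ST8SIA1 act, 10 were tested. Of these 2 rose and 2 fell with Fucotrim I (43.8% of all genes called), 4 rose and 3 fell with Fucotrim II (51.4%), and 1 fell with SGN-2FF (20.6%). With P-SiaFNEtoc (16.3%) edgeR called 0, with 4 at an unadjusted p under 0.05, and DESeq2 and limma-voom called 1 each. B4GALNT1, which competes with ST8SIA1 for the ganglioside GM3, fell with Fucotrim I (-0.48, adjusted p = 0.000156), Fucotrim II (-0.93, 0.00011) and SGN-2FF (-0.45, 6.87e-05), and HEXA, a lysosomal hexosaminidase subunit, rose with Fucotrim I (0.29, 0.00605) and Fucotrim II (0.47, 0.0027) in edgeR's test. PSAP, the saposin precursor, rose with Fucotrim I (0.18, 0.0168) and Fucotrim II (0.41, 0.00133), and its Fucotrim I call was lost without DMSO replicate 2 (0.0543), DMSO replicate 3 (0.0583), Fucotrim I replicate 1 (0.0751) or Fucotrim I replicate 3 (0.0535). Of the known carriers of polysialic acid only 3 of 7 were tested. GOLIM4 fell with Fucotrim I (-0.41, 1.21e-05) and Fucotrim II (-0.70, 0.000133), and with SGN-2FF or P-SiaFNEtoc edgeR, DESeq2 and limma-voom called 0, with 0 at an unadjusted p under 0.05 in edgeR.

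Of the pathway genes in the direct contrasts, GALNT3 was higher with P-SiaFNEtoc than with Fucotrim I (0.92, adjusted p = 4.04e-09) and Fucotrim II (0.80, 4.11e-08), and GALNT12 was lower (-0.79, 0.00293 and -1.20, 2.6e-05) in edgeR's test. B4GALNT1 was higher than with Fucotrim I (0.43, 0.00121), Fucotrim II (0.87, 6.28e-07) and SGN-2FF (0.41, 0.013), although the last call was lost without SGN-2FF replicate 1 (0.0794) or P-SiaFNEtoc replicate 2 (0.106). SIAE was lower than with Fucotrim I (-0.41, 0.000198) and Fucotrim II (-0.89, 4.8e-09), and GOLIM4 was higher (0.38, 3.92e-05 and 0.66, 5.5e-08). Of the sialyltransferases, ST6GAL1 was higher and ST3GAL3 lower than with Fucotrim I (0.39, 0.000591 and -0.41, 0.0064), and ST3GAL1 was higher than with Fucotrim I (0.38, 7.16e-06), Fucotrim II (0.22, 0.00291) and SGN-2FF (0.31, 0.000651). GCNT1 was higher than with Fucotrim I (0.32, 0.00107) and Fucotrim II (0.51, 9.43e-06), and CMAS was higher than with Fucotrim II (0.23, 0.000603). NEU3 was higher (0.68, 0.000155) and PSAP lower (-0.31, 0.000604) than with Fucotrim II, and GALNT10 was higher than with SGN-2FF (0.47, 0.000111) but lower than with Fucotrim II (-0.52, 1.42e-06) and Fucotrim I (-0.19, 0.0233). The last of these was lost without Fucotrim I replicate 1 (0.139) or P-SiaFNEtoc replicate 3 (0.137). HEXA was lower than with Fucotrim II (-0.28, 0.0142), a call lost without Fucotrim II replicate 2 (0.184), P-SiaFNEtoc replicate 1 (0.0643) or P-SiaFNEtoc replicate 2 (0.07) and with only both groups fitted (0.0606). ST3GAL2 was lower than with Fucotrim II (-0.53, 0.0294), a call lost without Fucotrim II replicate 2 (0.307), P-SiaFNEtoc replicate 1 (0.0693) or P-SiaFNEtoc replicate 3 (0.0848) and with DESeq2 (0.0535).

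ST8SIA1 and ST6GALNAC6 were each called in 2 of the comparisons with DMSO, the most of any of the 10 genes, and ST8SIA1 had the larger mean size of change. The genes most like ST8SIA1 over the 4 log2 fold changes against DMSO, among 14018 genes tested in all 4, were ZNF804A, ALDH1A1 and LINC00624, with mean absolute differences of 0.11, 0.16 and 0.25. ALDH1A1, a retinal dehydrogenase, had log2 fold changes of -1.83, -1.84, -0.45 and -0.27 with Fucotrim I, Fucotrim II, SGN-2FF and P-SiaFNEtoc. The SEs of the ST8SIA1 values were 0.52, 0.47, 0.38 and 0.38 in the same order, larger than these mean differences. Which genes are most like it, and their order, is thus within its error. ST8SIA1 also passed the filter only through its DMSO libraries. The 4 values share their DMSO libraries, and the likeness is a description.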

How the data were processed

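RNA-seq counts of 14 libraries were used. The authors sequenced stranded mRNA libraries, mapped trimmed reads to hg38 with HISAT2 and counted them with featureCounts, and deposited unnormalized whole-number counts in 4 tables that pair an inhibitor with the 3 DMSO libraries. The annotation release and strand setting are not given in the sources used here. Concentrations and the treatment time come from the methods of the study.

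Each inhibitor was fitted with DMSO in edgeR 4.0.16 (R 4.3.3) by the robust quasi-likelihood test, with filterByExpr (minimum count 10, minimum total 15) and TMM scaling, and p-values were adjusted by Benjamini-Hochberg over all genes tested. P-SiaFNEtoc was contrasted with each fucosylation inhibitor in a fit of all 14 libraries. Standard errors were derived from the log2 fold change and the F statistic of these fits, and 95% intervals from a t distribution. Both include the spread between libraries and are approximate, above all at low counts. CPM of the 27819 shared genes are on a joint TMM scale, set by the 14877 genes that passed the filter over all 14 libraries. RPKM use exon lengths of the GENCODE annotation of hg38. The floor of 3 counts covers counting error only. The fits were also run on simulated counts with few genes changed and the same spread in every condition. These settings differ from the data, so the simulation does not test the fits under their conditions.

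The genes and lists were chosen with earlier results of these data known. The text names all 10 genes, of each list the called genes with the largest rise and fall in a comparison and a mean of at least 50 counts, and the 3 genes most like the gene called most often. List genes named in any comparison are given in each comparison in which they were called. ST8SIA2, ST8SIA3, ST8SIA6-AS1 and AK1 were named outside this rule, after their values were seen. Alternatives were limma-voom (limma 3.58.1, the tool of the study) with and without quality weights, DESeq2 1.42.0, other filters, scalings and thresholds, a single fit, a block and leaving out each library. Labels call the libraries biological replicates, and 2 of Fucotrim II were analysed here. Figures were drawn with matplotlib.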

Additional observations from a re-analysis of the deposited data

How the results depend on the processing

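The rise of ST6GALNAC5 with P-SiaFNEtoc, and its excess over both Fucotrims, passed the threshold in every alternative. The fall of ST8SIA1 with Fucotrim II passed it in all 14 alternatives that tested the gene, with adjusted p-values up to 0.0357, and was not tested with at least 10 counts in every library. The main filter admitted ST8SIA1 only through its DMSO libraries, so passes that use such a filter are not independent of its level there. Each other call of the 10 genes was lost under at least 1 alternative. The number of the 10 genes called with Fucotrim I was 4, and it was 1 with DESeq2, 2 in a single fit of 14 libraries, 0 at an adjusted p under 0.01, and 1 to 2 when a library was left out. For Fucotrim II it was 2, and it was 1 with at least 10 counts in every library or an adjusted p under 0.01, and 1 to 3 when a library was left out. For SGN-2FF it was 1, and it was 0 with DESeq2, with limma-voom and quality weights or at an adjusted p under 0.01, and 0 to 1 when a library was left out. In the direct contrasts it was 1 to 2 against Fucotrim I and 1 to 3 against Fucotrim II when a library was left out.

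All genes called with SGN-2FF numbered 2946, and 1942 with DESeq2, 1695 in the single fit, 1609 at an adjusted p under 0.01 and 1642 to 3109 without a library. With P-SiaFNEtoc they numbered 2331, and 1482 with DESeq2, 998 in the single fit, 1171 at an adjusted p under 0.01 and 1516 to 2115 without a library. Between P-SiaFNEtoc and SGN-2FF they numbered 504, and 1850 with only the 2 groups compared and 186 to 326 without a library. The causes were not tested.

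With the longest transcript as length, the DMSO levels became 11.1 RPKM for ST6GALNAC6, 4.7 for ST6GALNAC4, 2.56 for ST8SIA4, 2.46 for ST6GALNAC2, 0.723 for ST6GALNAC5 and 0.0852 for ST8SIA1.

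The replicate numbers did not pair the libraries, with correlations of same-numbered libraries between -0.16 and 0.11 by the titles, and of 0.03 and 0.16 for Fucotrim II by the library names. With the number as a block 1 of the 10 genes was called for Fucotrim II instead of 2, since ST6GALNAC6 was lost (0.36, adjusted p = 0.051), but it was called with the numbers of the library names as the block (0.32, 0.00346), which differ from those of the titles. The block gave 332 genes of all called between P-SiaFNEtoc and SGN-2FF. It turned the sign of ST6GALNAC2 against Fucotrim II (0.03 instead of 0.00), lost ST3GAL3 (-0.27, adjusted p = 0.266), ST3GAL1 (-0.15, 0.387) and CMAS (-0.31, 0.0692) with Fucotrim II, and changed no other call of the 10 genes.

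Signs turned otherwise only for differences that passed no test. ST8SIA1 between P-SiaFNEtoc and SGN-2FF was -0.08 with limma-voom, and -0.43 to 0.38 without a library. When a library was left out, ST6GALNAC4 with SGN-2FF ranged from -0.11 to 0.18, ST8SIA4 with P-SiaFNEtoc from 0.00 to 0.05, and, for P-SiaFNEtoc against Fucotrim I, ST6GALNAC3 from -0.07 to 0.25 and ST6GALNAC4 from -0.15 to 0.06. Against Fucotrim II, ST6GALNAC2 ranged from -0.03 to 0.02 and ST6GALNAC4 from -0.29 to 0.20. Where 1 Fucotrim II library remained, it was assumed to vary like the other groups. The 4 genes with at most 11 counts in every library were tested against DMSO only where the filter was dropped or the libraries differed, and the depth limits what can be said of them.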
